A study of Mus musculus with 24 samples.

Results

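Messenger RNA of 10 endothelial genes was followed in stromal cells sorted from embryonic mouse kidneys. The genes were Pecam1, Cdh5, Esam, Kdr, Flt1, Aplnr, Robo4, Tek, Vwf and Emcn. They were chosen by name, as a list of genes that mark blood vessel lining, with earlier results of these data known. All 10 were among the 13803 genes measured. The 24 libraries fall into 8 groups of 3. Beta-catSD cells (SD, deficient in beta-catenin) came from the C57BL/6 background and beta-catSO cells (SO, with stabilised beta-catenin) from the CD1 background. Wild-type cells of each background served as controls, and every genotype was sampled at E12.5 and E13.5, counted in days of embryonic life (E). All groups, wild-type included, carried the FoxD1Cre-eGFP transgene, which puts Cre recombinase and a green fluorescent protein under the control of Foxd1, a transcription factor gene of renal stromal progenitors, and cells were taken by fluorescence. Which alleles remove or stabilise beta-catenin is not stated in the labels. The series record speaks of 3 kidneys per genotype without tying libraries to animals or litters, so each p-value measures the spread between these libraries, which may be technical. Strain goes with the mutant line: SD is compared with C57BL/6 wild-type only, and SO with CD1 wild-type only.

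Endothelial cells line blood vessels, hold together through junction proteins and respond to growth factors made by the tissue around them. In the developing kidney a capillary plexus spreads through the stroma, and lineage tracing has placed some of the kidney's endothelial cells among the descendants of Foxd1-expressing progenitors. Beta-catenin is both a partner of cadherins at cell junctions and the transcriptional effector of Wnt signalling. Among the 10 genes, Pecam1 (CD31), Cdh5 (VE-cadherin) and Esam encode adhesion proteins of the endothelial junction. Kdr (VEGFR2) and Flt1 (VEGFR1) encode the receptors of vascular endothelial growth factor, and Tek (Tie2) the receptor of the angiopoietins. Aplnr is the receptor of apelin and Robo4 a roundabout receptor of endothelium. Vwf, the von Willebrand factor, is stored in endothelial cells and in platelets, and Emcn (endomucin) is a sialomucin of capillary and venous endothelium.

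In the mm10 assembly with GENCODE M21 annotation, the adhesion genes are Pecam1 (chr11:106654217-106750628, minus strand), Cdh5 (chr8:104101625-104144511, plus strand) and Esam (chr9:37528078-37538319, plus strand). The receptor genes are Kdr (chr5:75932827-75978458, minus strand), Flt1 (chr5:147561604-147726011, minus strand), Tek (chr4:94739289-94874976, plus strand), Aplnr (chr2:85136225-85139923, plus strand) and Robo4 (chr9:37401897-37415115, plus strand). The remaining genes are Vwf (chr6:125546774-125686679, plus strand) and Emcn (chr3:137341067-137432185, plus strand). All are protein-coding, and each value sums reads over the exons of the whole gene. Robo4 and Esam are neighbours, separated by 113 kb. Cdh5 overlaps the annotated gene Gm29682 on the other strand. No source used here states whether counting used the strand, so reads of the overlap cannot be told apart. None of the 10 transcripts had a second locus with at least 95% identity over 200 bases.

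Promoter windows are shown for the 5 of the 10 genes that the promoter table used here holds. They include the pair that was not called lower in SD cells (Emcn and Tek) and 3 genes that were (Kdr, Flt1 and Robo4), while Pecam1, Esam, Aplnr, Vwf and Cdh5 were not matched. Each window runs from 250 bases before to 50 after the transcription start, 5′ to 3′ along the gene, and comes from RefSeq on GRCm38.p6. The windows are Emcn at chr3:137340828-137341127 on the plus strand, Tek at chr4:94739039-94739338 on the plus strand, Kdr at chr5:75978406-75978705 on the minus strand, Flt1 at chr5:147725962-147726261 on the minus strand and Robo4 at chr9:37401722-37402021 on the plus strand. Capitals mark the core letters GGAA or TTCC, which ETS factors, a family that includes regulators of endothelial genes, bind.
Emcn: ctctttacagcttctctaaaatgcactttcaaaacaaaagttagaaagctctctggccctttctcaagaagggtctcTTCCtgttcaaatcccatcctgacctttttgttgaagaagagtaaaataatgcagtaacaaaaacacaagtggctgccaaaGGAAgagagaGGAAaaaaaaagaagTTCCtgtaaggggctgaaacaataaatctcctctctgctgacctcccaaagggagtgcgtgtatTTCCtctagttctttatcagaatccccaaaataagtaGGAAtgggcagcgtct
Tek: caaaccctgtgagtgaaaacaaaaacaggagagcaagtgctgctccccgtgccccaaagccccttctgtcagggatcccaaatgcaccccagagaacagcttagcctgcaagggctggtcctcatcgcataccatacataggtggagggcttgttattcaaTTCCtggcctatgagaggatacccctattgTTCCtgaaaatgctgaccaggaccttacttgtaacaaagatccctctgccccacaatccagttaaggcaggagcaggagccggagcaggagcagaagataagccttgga
Kdr: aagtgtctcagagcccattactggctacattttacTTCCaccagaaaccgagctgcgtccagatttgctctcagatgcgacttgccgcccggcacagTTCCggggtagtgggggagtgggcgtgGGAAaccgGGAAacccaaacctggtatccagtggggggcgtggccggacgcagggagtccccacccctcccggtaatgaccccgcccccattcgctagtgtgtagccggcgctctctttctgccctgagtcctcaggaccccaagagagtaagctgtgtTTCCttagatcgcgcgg
Flt1: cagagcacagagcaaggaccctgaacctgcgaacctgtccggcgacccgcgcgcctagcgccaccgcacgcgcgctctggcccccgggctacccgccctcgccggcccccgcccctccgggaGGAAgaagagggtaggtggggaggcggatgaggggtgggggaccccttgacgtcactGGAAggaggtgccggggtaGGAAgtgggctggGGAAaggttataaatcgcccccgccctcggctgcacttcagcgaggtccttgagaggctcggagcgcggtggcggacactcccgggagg
Robo4: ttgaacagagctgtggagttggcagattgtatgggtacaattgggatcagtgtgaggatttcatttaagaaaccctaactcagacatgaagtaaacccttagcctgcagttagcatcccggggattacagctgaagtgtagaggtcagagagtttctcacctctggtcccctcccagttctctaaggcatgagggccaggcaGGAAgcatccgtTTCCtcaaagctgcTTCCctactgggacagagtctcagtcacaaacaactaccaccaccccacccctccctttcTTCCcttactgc
The core was found 6 times in the Emcn window, 5 times in that of Kdr, 4 times each in those of Flt1 and Robo4, and 2 times in that of Tek. It is a short motif: 95.96% of the 32544 windows of this length hold it on either strand, with a median of 3 matches. At least 6 matches occur in 15.7% of windows, at least 5 in 28.6%, at least 4 in 46.3% and at least 2 in 84.6%. The letters CTTTGA, searched on both strands like the next ones and part of the TCF/LEF motif through which beta-catenin acts on DNA, stand 1 time in the Robo4 window and in none of the other 4, against 16.02% of all windows. The GATA letters AGATAA stand 1 time in the Tek window, against 11.2% of all windows. The forkhead letters TAAACA are in none of the 5, against 13.4% of all windows. A match describes the letters of the window and shows neither binding nor a cause. The core letters thus occur in the windows of Emcn and Tek as well as in those of Kdr, Flt1 and Robo4.

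Levels are given as log2 CPM, where CPM is reads per mega-read of a library, the scale on which the authors deposited them. Library totals ran from 6.18 to 21.2 M (mega) reads. A list of 10 renal stroma genes summed to between 8924 and 14319.7 CPM in every library, and Foxd1 itself lay between 7.05 and 9.27 log2 CPM, so the labelled cell type is borne out by its markers. Ctnnb1, the beta-catenin gene, lay between 10.34 and 10.86 log2 CPM in all 24 libraries, with 10.36 to 10.66 in SD and 10.69 to 10.86 in wild-type at E12.5. Its count covers the whole gene, so it does not show the loss of single exons. Axin2, a target of Wnt signalling, lay at 3.48 to 4.004 log2 CPM in SD, 4.60 to 4.94 in C57BL/6 wild-type, 8.38 to 8.78 in SO and 4.71 to 5.002 in CD1 wild-type at E13.5. Some libraries stand apart. CD1 wild-type E13.5 replicate 1 was highest of all 24 in summed ureteric epithelium genes (276 CPM) and nephron progenitor genes (653 CPM) and had 8.65 log2 CPM of the stroma gene Pdgfra, against 9.35 and 9.63 in the other two of its group. C57BL/6 wild-type E12.5 replicate 3 and CD1 wild-type E13.5 replicate 3 were highest in the liver gene Alb (10.44 and 8.18 log2 CPM).

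All 10 endothelial genes were detected in the sorted stroma, at low levels. Summed over the 10, they reached 47.9 to 185 CPM in C57BL/6 wild-type libraries at E12.5 and 114 to 126 at E13.5. In wild-type libraries Cdh5 was the most abundant of the 10 per kilobase of exon, with a median of 5.57 RPKM (reads per kilobase and mega-read) over the 12 libraries and 26.7% of the RPKM summed over the 10 genes. Tek followed with 13.6%, Pecam1 with 13.47%, Aplnr with 12.04%, Kdr with 9.86% and Emcn with 8.997%. The least abundant per length were Vwf at 0.326 RPKM and Flt1 at 0.451 RPKM. In SD libraries the order was another: Emcn held 57.2% and Tek 26.1% of the summed RPKM, and Cdh5 6.89%. In the C57BL/6 wild-type libraries alone, Emcn held 11.8%, Tek 17.1% and Cdh5 23.6%. In SO libraries Cdh5 was again the most abundant, at 28.1%. Aplnr at 14.01%, Pecam1 at 13.6%, Kdr at 11.6% and Tek at 8.16% followed. The 12 wild-type libraries pool both backgrounds, and shares in CD1 wild-type alone were not computed. The order in SO therefore cannot be set against that of its own wild-type here.

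**Figure D1:**
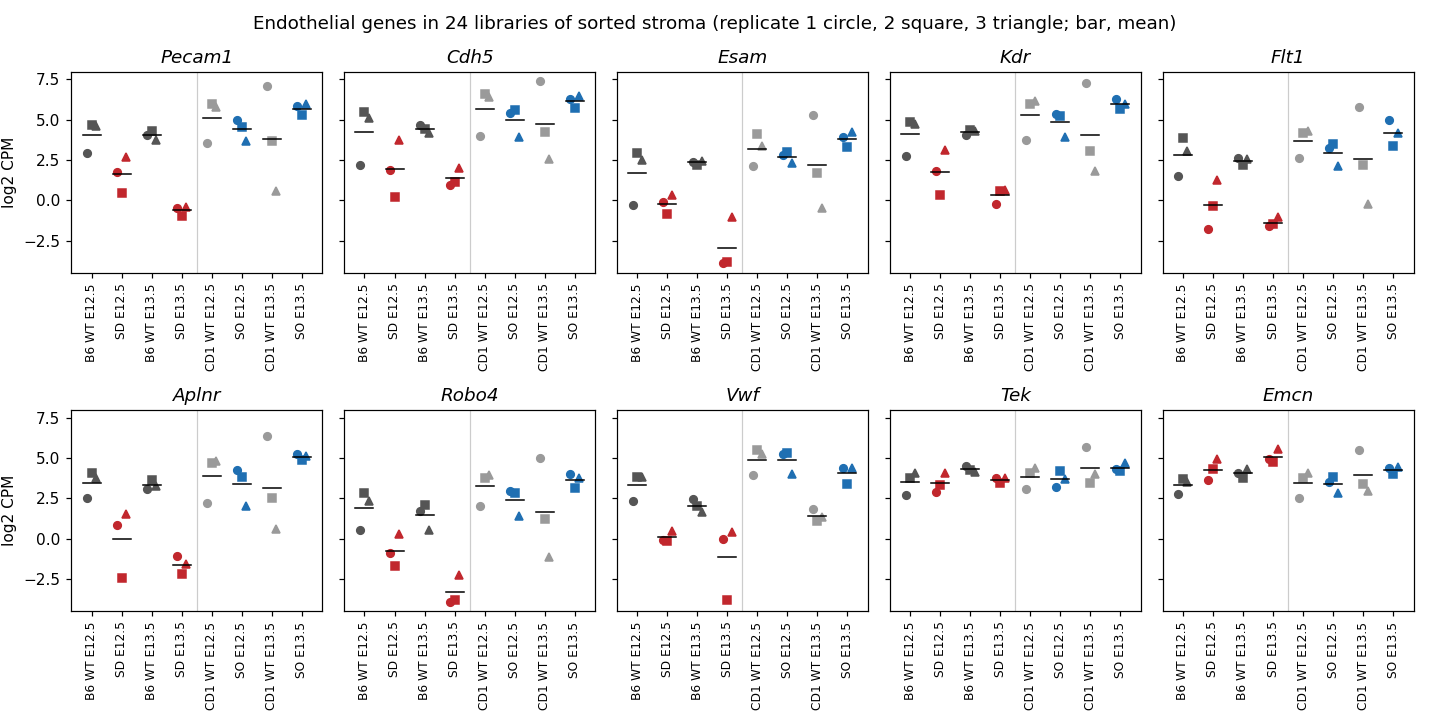
Level of each of the 10 genes in each of the 24 libraries, as log2 CPM on the vertical axis, by group on the horizontal axis (B6 WT and CD1 WT, wild-type of each background); circles, squares and triangles are replicates 1, 2 and 3 and the bar is the group mean. Red SD points lie below the dark grey wild-type points at E13.5 for every gene but Emcn, and the light grey CD1 wild-type points at E13.5 spread from 0.58 to 7.06 for Pecam1.

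At E13.5, 7 of the 10 endothelial genes were lower in SD stroma than in C57BL/6 wild-type stroma, by 3.17 to 5.27 on the log2 scale. They were the adhesion genes Pecam1 and Esam, the growth factor receptors Kdr and Flt1, the receptors Aplnr and Robo4, and Vwf. Cdh5 had a change of -3.05 and did not pass the test, nor did Tek at -0.65, and Emcn was above its wild-type level in all 3 libraries without passing the test. The call rule was an adjusted p under 0.05 (Benjamini-Hochberg, 13803 genes) in limma's moderated test of the 24 libraries, and 2.07% of all genes were called lower in this comparison. SD and wild-type libraries did not overlap for any of the 10 (9 lower, Emcn higher), while 11.1% of all genes were lower and 10.1% higher without overlap. The median change over the 10 was -3.86, beside a median of 0.00 over all genes.

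Among the adhesion genes, Pecam1 stood at -0.45, -0.99 and -0.41 log2 CPM in the 3 SD libraries and at 4.05, 4.29 and 3.74 in the 3 wild-type libraries. These values are 5, 3 and 5 reads against 115, 178 and 114. The groups were far apart, and the change was -4.64 ± 0.96 (SE, adjusted p = 0.00656). Here and below, the SE and p rest on a spread that all 8 groups share, CD1 libraries included. The standard deviation of Pecam1 at E13.5 was 0.32 in SD, 0.27 in C57BL/6 wild-type and 3.24 in CD1 wild-type. In a fit of the 12 libraries of this line alone, its adjusted p was 2.35e-04. Esam had 0, 0 and 3 reads in SD and 36, 42 and 46 in wild-type, so that it was at 0 in SD replicates 1 and 2. Its fitted change of -5.27 ± 0.999 (adjusted p = 0.00323) depends on the 0.5 reads added before the logarithm. The ratio of summed reads, scaled to library size, was 36.4 (95% counting interval 12.2 to 179) for wild-type over SD. Cdh5 stood at 0.95, 1.16 and 2.02 in SD and at 4.68, 4.42 and 4.17 in wild-type. All 3 SD libraries were below all 3 wild-type libraries, and the change of -3.05 (95% interval -5.07 to -1.03) had an adjusted p of 0.0933.

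Both receptors of vascular endothelial growth factor were lower in SD at E13.5. Kdr stood at -0.21, 0.60 and 0.66 log2 CPM in SD and at 4.05, 4.36 and 4.28 in wild-type, a change of -3.88 ± 0.93 (adjusted p = 0.0190). For Flt1 the values were -1.59, -1.47 and -1.06 in SD and 2.61, 2.22 and 2.59 in wild-type, a change of -3.84 ± 0.97 (adjusted p = 0.0260). Both groups were narrow for these genes, and no library of either came near the other. Flt1 lost its call whichever of the 6 libraries was left out (adjusted p up to 0.0964). Kdr lost it in 3 of 6 cases (SD replicate 1, wild-type replicates 2 and 3, adjusted p up to 0.0922). Those fits still used the spread shared by all 8 groups. The standard deviation of Flt1 at E13.5 was 0.28 in SD, 0.22 in C57BL/6 wild-type and 3.03 in CD1 wild-type. Fitted on the 12 libraries of this line alone, with none left out, both were called (Flt1 adjusted p = 0.00921, Kdr 0.00424). The apelin receptor gene Aplnr had 3, 1 and 2 reads in SD and 58, 114 and 81 in wild-type. That is -1.10, -2.21 and -1.55 against 3.07, 3.65 and 3.25 log2 CPM, and the change was -4.94 ± 1.04 (adjusted p = 0.00736). Robo4 was nearly unread in SD, with 0, 0 and 1 reads against 22, 39 and 12. With 1 read in all SD libraries the scaled ratio of wild-type over SD was 64.4 (95% counting interval 11.2 to 2577), and the fitted change was -4.78 ± 0.997 (adjusted p = 0.00695).

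Vwf was uneven among the SD libraries at E13.5, with 7, 0 and 9 reads, or 0.00, -3.80 and 0.38 log2 CPM. Wild-type libraries held 38, 36 and 26 reads, or 2.47, 1.997 and 1.63 log2 CPM. Every SD library was below every wild-type library, and the change was -3.17 ± 0.71 (adjusted p = 0.0128). Without SD replicate 2, the library with no Vwf read, the change was -1.84. Without wild-type replicate 1 the adjusted p was 0.0516, and in a fit of the 12 libraries of this line alone Vwf was not called (adjusted p = 0.0646).

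Tek and Emcn were not among the genes called. Tek stood at 3.79, 3.42 and 3.74 log2 CPM in SD at E13.5 and at 4.49, 4.26 and 4.14 in wild-type. SD libraries were below wild-type libraries by a small step of -0.65 (95% interval -1.56 to 0.26; adjusted p = 0.560). Emcn stood at 4.95, 4.73 and 5.53 in SD and at 4.07, 3.73 and 4.34 in wild-type. Here the SD libraries were the higher, by 1.02 (95% interval 0.02 to 2.01; adjusted p = 0.326). In reads, SD libraries held 751 of Emcn in sum and 13 of Pecam1, and wild-type libraries 411 and 407.

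At E12.5 the SD values of most members were also below wild-type, with a wider spread in both groups, and 1 of 10 was called. That gene was Vwf, at -0.10, -0.14 and 0.47 log2 CPM in SD and 2.34, 3.83 and 3.84 in wild-type. The change was -3.26 ± 0.71 (adjusted p = 0.0166), in a comparison that called 0.732% of all genes lower. Vwf lost this call when SD replicate 2 or wild-type replicate 2 or 3 was left out (highest adjusted p 0.0838), in a fit of the line's 12 libraries alone (0.0685), and without the Alb-high libraries (0.0602). Pecam1 stood at 1.78, 0.48 and 2.67 in SD and 2.91, 4.64 and 4.59 in wild-type. No SD library reached a wild-type library, but the change of -2.40 (95% interval -4.39 to -0.41) had an adjusted p of 0.244. Flt1 (-3.11, adjusted p = 0.105), Aplnr (-3.46, adjusted p = 0.0919) and Robo4 (-2.65, adjusted p = 0.207) were likewise separate without being called. The fit of the line's 12 libraries alone did call Pecam1 (adjusted p = 0.0321), Flt1 (0.0351) and Aplnr (0.0388). For Kdr, Esam and Cdh5, SD replicate 3 lay above wild-type replicate 1. In total 5 of the 10 were lower without overlap, beside 7.35% of all genes.

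Wild-type replicate 1 was the lowest of its group for all 10 members at E12.5: it held 47 reads of Cdh5, while replicates 2 and 3 held 540 and 417. Among the SD libraries, replicate 2 was the lowest for Pecam1, Kdr, Esam, Robo4, Aplnr, Vwf and Cdh5, and replicate 3 the highest for all 10. Tek stood at 2.90, 3.32 and 4.09 in SD and 2.73, 3.73 and 4.05 in wild-type, a difference of -0.06 (95% interval -0.97 to 0.85). Emcn stood at 3.63, 4.29 and 4.91 in SD, beside wild-type values of 2.79, 3.72 and 3.53, a difference of 0.93 (95% interval -0.07 to 1.92; adjusted p = 0.410). Only wild-type replicate 2 exceeded an SD library in Emcn, and it exceeded 1 of the 3.

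Averaged over both stages, 8 of 10 members were called lower in SD, in a comparison that called 3.71% of all genes lower. The change was largest for Aplnr (-4.20 ± 0.74, adjusted p = 6.92e-04). Robo4 (-3.71), Esam (-3.61), Pecam1 (-3.52) and Flt1 (-3.48) followed, with adjusted p-values of 0.00151 to 0.00208. Vwf changed by -3.22 ± 0.50 (adjusted p = 2.43e-04) and Kdr by -3.11 ± 0.66 (adjusted p = 0.00391). Cdh5 changed by -2.68 ± 0.69 (adjusted p = 0.0172) and lost its call (adjusted p up to 0.0570) when replicate 2 of either group at E12.5 was left out. Tek did not pass the test (-0.36, 95% interval -0.998 to 0.29). Emcn had 0.97 ± 0.34 and an adjusted p of 0.0892, which became 0.0167 when only the 12 libraries of this line were fitted.

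The SD difference at E13.5 was not called larger than that at E12.5 for any member, and limma called 0% of all genes in that comparison. Without adjustment 1 of the 10 members, Esam, had a p under 0.05 (-3.33, 95% interval -6.26 to -0.40; adjusted p = 0.890). The calls of the SD comparisons depend on how the spread is modelled. With voom weights, which give every read count its own precision, no member was called at E12.5, at E13.5 or over both stages. At E13.5 the changes were of nearly the same size (Pecam1 -4.64), while the adjusted p of Pecam1 rose to 0.733 at E13.5 and 0.401 over both stages. The separation of the libraries at E13.5 is read from the deposited values without a model, so it could not change with this choice. At E13.5, 11.1% of all genes were lower and 10.1% higher in SD without overlap.

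**Figure D2:**
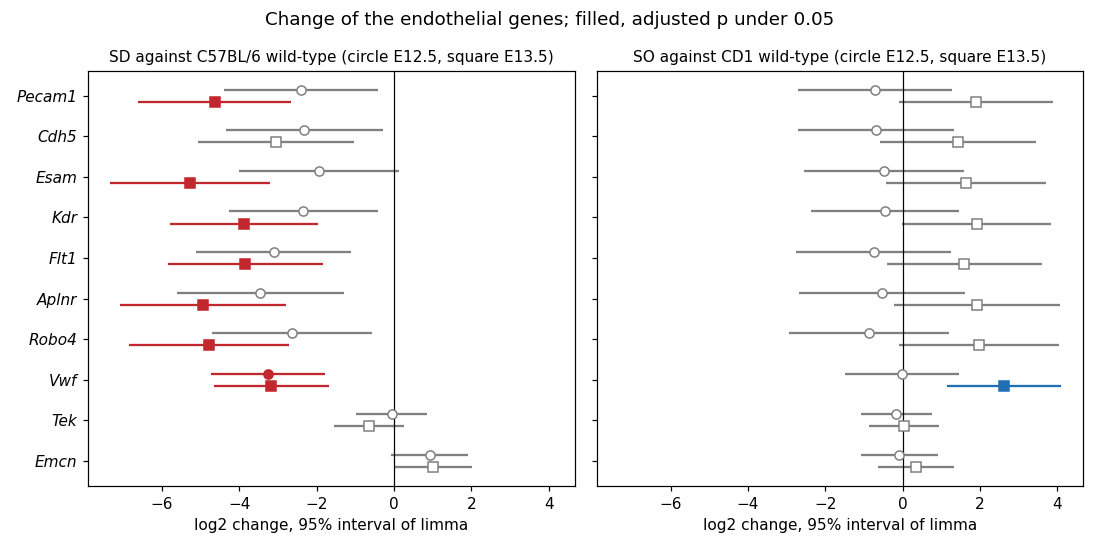
Change of each gene on the log2 scale (horizontal axis) with its 95% interval from limma, SD against C57BL/6 wild-type on the left and SO against CD1 wild-type on the right; circles are E12.5, squares E13.5, and filled symbols have an adjusted p under 0.05. On the left 7 squares and 1 circle are filled, all below 0, and on the right only the Vwf square at 2.63.

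Within each library, the level of Emcn and Tek relative to Pecam1 set the SD libraries apart from the C57BL/6 wild-type libraries. Per kilobase of exon, the log2 ratio of Emcn to Pecam1 ran from 5.60 to 6.14 in SD at E13.5 and from 2.05 to 4.02 in SD at E12.5. In C57BL/6 wild-type libraries it ran from -0.35 to 0.80 at E13.5 and from -0.85 to 0.09 at E12.5. No SD library overlapped a wild-type library of its background. In SO libraries the ratio lay at -1.30 to -1.05 at E13.5. CD1 wild-type libraries at E13.5 reached 2.60, in replicate 3, which held 11 reads of Pecam1 and lay above SD replicates 1 and 3 at E12.5. The ratio of Tek to Pecam1 was 4.55 to 4.81 in SD and 0.38 to 0.84 in C57BL/6 wild-type at E13.5, and 1.53 to 3.25 and -0.51 to 0.22 at E12.5. That CD1 wild-type library had a Tek ratio of 3.82, above all 3 SD libraries at E12.5, so the ratios do not set SD apart from every wild-type library. Cdh5 moved more nearly with Pecam1: its ratio was 1.97 to 2.99 in SD and 0.70 to 1.20 in C57BL/6 wild-type at E13.5, also without overlap. A ratio shows unequal change within a library, follows from the values given above and is no separate test. It rests on 3 to 5 reads of Pecam1 per SD library at E13.5.

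**Figure D3:**
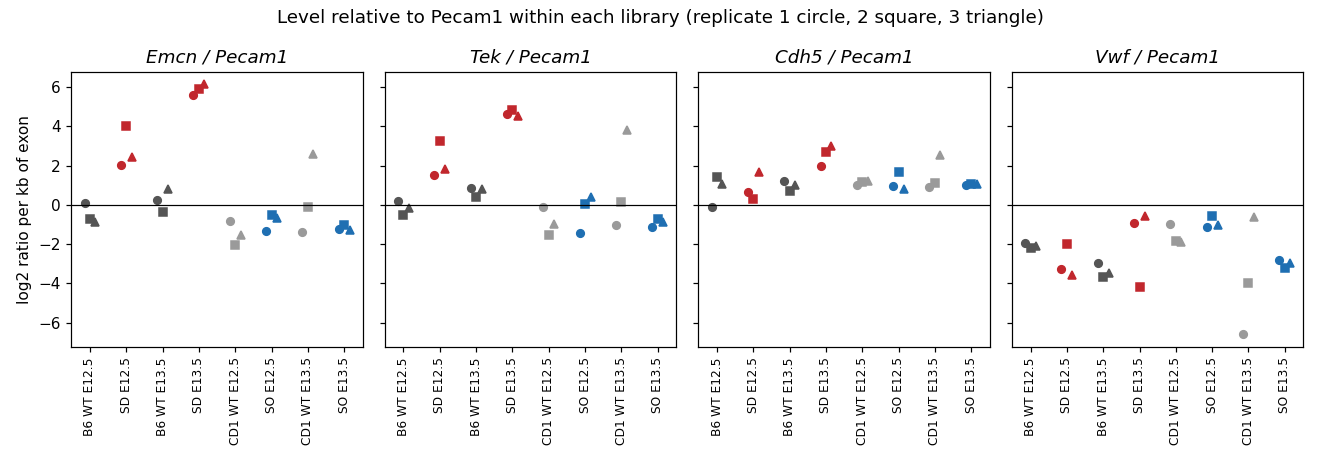
Log2 ratio of Emcn, Tek, Cdh5 and Vwf to Pecam1 within each library, per kilobase of exon, by group; circles, squares and triangles are replicates 1, 2 and 3. The red SD points of Emcn and Tek lie above all C57BL/6 wild-type points, with Emcn at 5.60 to 6.14 in SD at E13.5.

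Genes of blood cells were also lower in SD stroma. Over all genes, 2.07% were called lower at E13.5, 0.732% at E12.5 and 3.71% over both stages. Over both stages 3.46% were called higher. Of 14 macrophage genes, 12 were called lower at E13.5, 0 at E12.5 by limma, and 11 over both stages (Mrc1 -2.24 ± 0.37, Cx3cr1 -1.93 ± 0.35, C1qa -1.98 ± 0.37, Aif1 -2.65 ± 0.52). Their summed level at E13.5 was 19.6 to 50.9 CPM in SD and 203 to 330.3 in wild-type. At E12.5 it was 86.1 to 205 and 117 to 742, so the groups overlapped. Of 8 megakaryocyte and platelet genes, 5 were called lower over both stages, among them Pf4 (-3.22 ± 0.53) and Gp1ba (-3.07 ± 0.67), which encode a platelet chemokine and the platelet receptor of Vwf. Their summed level was 4.13 to 6.03 CPM in SD and 10.4 to 25.4 in wild-type at E13.5, and 7.52 to 15.3 and 40.2 to 76.4 at E12.5. The platelet genes listed at 0 reads numbered 2 to 3 of 8 per SD library at E13.5 and 0 in each C57BL/6 wild-type library. Of 9 erythroid genes, 4 were called lower and 1 higher (embryonic globin Hbb-bh1 -5.37 ± 1.02, Epor 0.75 ± 0.13), and their sums were 19.2 to 73.6 CPM in SD and 583 to 850.2 in wild-type at E12.5, without overlap. At E13.5 the sums were 28.6 to 62.5 and 52.8 to 1198, and overlapped.

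Few genes of epithelium, nephron progenitors, liver or stroma were called over both stages. That comparison called 3.71% of all genes lower and 3.46% higher. Of 8 ureteric epithelium genes 1 was called lower over both stages (Krt8, -3.41 ± 0.91), and limma called 0 of 9 nephron progenitor genes and 0 of 7 liver genes. At E13.5 ureteric genes summed to 47.5 to 57.6 CPM in SD and 43.7 to 47.3 in wild-type, and nephron progenitor genes to 231 to 379 and 264 to 294. Liver genes summed to 3.98 to 7.48 CPM in SD and 15.97 to 18.5 in wild-type at E13.5, lower in SD without overlap, and to 7.88 to 17.8 and 15.6 to 4556 at E12.5, where the groups overlapped. Of 10 renal stroma genes 1 was called lower (Tcf21, -1.37 ± 0.14). The part of blood cell or liver RNA in the values of the endothelial genes was not tested. In bulk RNA from sorted cells, fewer cells of a type and less RNA per cell cannot be told apart. The sorting protocol mentions a second sort for some cells without saying for which libraries.

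**Figure D4:**
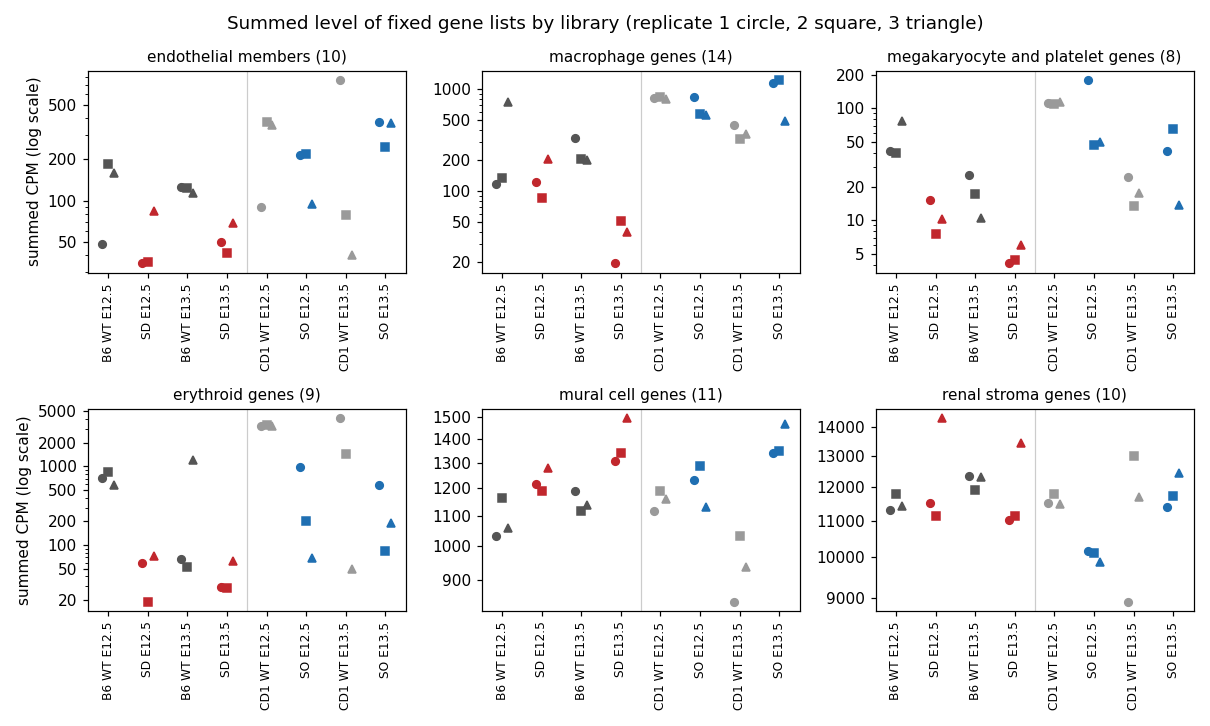
Summed CPM of 6 gene lists in each library, on log axes, by group; circles, squares and triangles are replicates 1, 2 and 3. At E13.5 the SD points are below the C57BL/6 wild-type points for the 10 endothelial genes (41.6 to 67.99 against 114 to 126 CPM) and for macrophage and platelet genes, but not for mural cell genes (1307 to 1495 against 1116 to 1187 CPM).

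A further list of 29 endothelial receptors, junction and surface genes moved partly with the members in SD. Over both stages 10 were called lower and 2 higher, with a median change of -1.36. For this and the next 2 lists, the shares of all genes were 3.71% lower and 3.46% higher. Icam2 (-3.58 ± 0.68), an adhesion molecule, Myct1 (-3.56 ± 0.61) and Cd93 (-2.62 ± 0.55) fell. Adgrf5, an adhesion G protein-coupled receptor, rose by 1.05 ± 0.17 (adjusted p = 2.61e-04): it stood at 6.13 to 6.39 log2 CPM in SD and 5.20 to 5.48 in wild-type at E13.5. In the SO line Adgrf5 fell by 1.11 ± 0.17 (adjusted p = 2.79e-05). Tie1, the partner receptor of Tek, stood at -0.10 to 0.38 in SD and 2.98 to 3.63 in wild-type at E13.5. Of 11 endothelial transcription factors, 4 were called lower in SD and 1 higher. Hhex (-3.68 ± 0.61), Tal1 (-3.07 ± 0.74) and Sox18 (-2.85 ± 0.65) fell, and the ETS factor gene Fli1 rose slightly (0.29 ± 0.08, adjusted p = 0.0277). Of 6 lymphatic endothelial genes 3 were lower, namely Stab2 (-3.40 ± 0.60), Lyve1 (-2.42 ± 0.51) and Stab1 (-2.07 ± 0.40). Macrophages can also express Lyve1 and Stab1. Pdpn, which stroma can also express, was higher (0.77 ± 0.13).

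A list of 11 ligands and co-receptors of Kdr, Flt1, Tek and Aplnr gave 1 lower and 1 higher gene in SD over both stages. Among all genes, 3.71% were called lower and 3.46% higher. The co-receptor gene Nrp1 rose by 0.82 ± 0.07 (adjusted p = 9.53e-08), from 7.99 to 8.31 log2 CPM in wild-type to 8.92 to 9.20 in SD at E13.5. Angpt1, the activating ligand of Tek, was the lower one (-0.45 ± 0.12, adjusted p = 0.0173). At E12.5 it stood at 4.66 to 5.05 in SD and 5.30 to 5.64 in wild-type, and at E13.5 at 4.88 to 5.17 and 5.02 to 5.37, where the groups overlapped. Angpt2, the other angiopoietin, had 0.64 ± 0.23 (adjusted p = 0.106). Vegfa, the main ligand of Kdr, lay at 6.14 to 6.49 in SD and 6.25 to 6.27 in wild-type at E13.5, and was not called. Of 11 mural cell genes, which mark the pericytes and smooth muscle around vessels, 4 were higher in SD and 0 lower by limma, in a comparison over both stages that called 3.46% of all genes higher (Abcc9 1.04 ± 0.17, Kcnj8 0.90 ± 0.22, Cspg4 0.57 ± 0.11, Pdgfrb 0.38 ± 0.06).

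In SO stroma the endothelial genes were present at levels that the test did not tell from CD1 wild-type, apart from Vwf at E13.5. At E12.5 limma called 0 of 10 members, and none had an unadjusted p under 0.05, in a comparison that called 8.16% of all genes either way. Changes ran from -0.87 for Robo4 to -0.03 for Vwf. Pecam1 stood at 5.01, 4.52 and 3.67 log2 CPM in SO and at 3.55, 5.99 and 5.78 in CD1 wild-type. The groups overlapped, and the 95% interval of the change, -2.70 to 1.28, is wide. Cdh5 had 261, 311 and 99 reads in SO and 153, 986 and 825 in wild-type, and Emcn 69, 89 and 46 and 55, 137 and 162. In wild-type, replicate 1 was the lowest for all 10 members; in SO, replicate 3 was the lowest for 9.

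At E13.5, 1 of 10 members was called higher in SO, beside 8.53% of all genes. Vwf stood at 4.39, 3.41 and 4.38 log2 CPM in SO and 1.84, 1.10 and 1.34 in CD1 wild-type. All SO libraries were higher, and the change was 2.63 ± 0.71 (adjusted p = 0.0131). Leaving out SO replicate 1 put its adjusted p at 0.0501. Pecam1 stood at 5.83, 5.27 and 5.95 in SO and at 7.06, 3.70 and 0.58 in CD1 wild-type, or 695, 816 and 780 reads against 2224, 87 and 11. The SO libraries lay close together, and the wild-type libraries spread from above to far below them. Kdr showed the same spread, at 6.30, 5.64 and 5.996 in SO and 7.28, 3.06 and 1.84 in wild-type, and Aplnr at 5.22, 4.84 and 5.15 and 6.35, 2.51 and 0.58. Changes of the 9 genes not called ran from 0.04 for Tek to 1.97 for Robo4. With voom weights these changes were smaller, at 0.97 for Pecam1 (1.90 in the fit reported), 0.85 for Robo4 and 0.48 for Flt1 (1.59). Tek (-0.35) and Emcn (-0.12, against 0.35) changed sign, while Vwf had 2.39 and kept its call (adjusted p = 0.0396).

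The SO values at E13.5 turned on single CD1 wild-type libraries. Replicate 1 at E13.5 was the highest of all 24 libraries for 8 of the members, with 2224 reads of Pecam1 and 2812 of Cdh5, and the same library was highest in ureteric and nephron progenitor genes, as given above. Without it, 8 of 10 members were called higher in SO at E13.5: Pecam1 by 3.55 (adjusted p = 0.00183), Kdr by 3.53 (0.00117), Flt1 by 3.19, Esam by 3.22, Robo4 by 3.62, Aplnr by 3.53, Vwf by 2.83 and Cdh5 by 2.76. The share of all genes called in that fit is not given here, and the 8.53% above belongs to the fit of all libraries. Without replicate 3 instead, the library lowest of its group for 8 members and high in Alb, Pecam1 changed by 0.30 (adjusted p = 0.870), and Vwf, with 2.59, was the gene still called (adjusted p = 0.0417). Emcn had 1.12 without replicate 1 and -0.14 without replicate 3, and Tek 0.68 and -0.15, none of them called. The part of epithelial or liver RNA in these values was not tested.

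**Figure D5:**
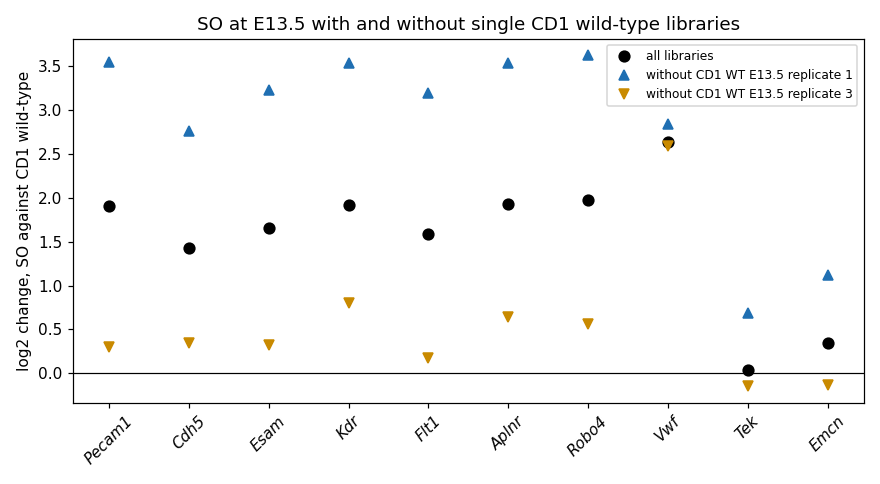
Change of each gene in SO against CD1 wild-type at E13.5 on the log2 scale (vertical axis), with all libraries (black circles), without CD1 wild-type replicate 1 (blue triangles) and without replicate 3 (yellow triangles). Pecam1 moves from 1.90 to 3.55 and 0.30, while Vwf stays between 2.59 and 2.83.

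Over both stages limma called 0 of 10 members in SO and 1, Vwf, had an unadjusted p under 0.05 (1.30 ± 0.50, adjusted p = 0.0774), while 18.5% of all genes were called either way. The change in the SO effect between the stages gave 0 calls among the members and again 1 unadjusted p under 0.05, that of Vwf (2.66 ± 1.01, adjusted p = 0.206), beside 1.33% of all genes. Without CD1 wild-type E13.5 replicate 1, Kdr was called over both stages, and Pecam1, Kdr, Flt1 and Robo4 in the comparison of the stages. The shares of all genes called without that library are not given here. Of 11 ligands and co-receptors, 5 were higher and 1 lower in SO over both stages. They include Angpt1 (1.14 ± 0.12, adjusted p = 1.23e-07), Nrp2 (2.13 ± 0.24, adjusted p = 4.44e-07) and Vegfa (0.39 ± 0.07). Angpt1 stood at 5.97 to 6.38 log2 CPM in SO and 4.30 to 5.17 in CD1 wild-type at E13.5. Of the 29 further endothelial surface genes 1 was higher (S1pr1, 1.22 ± 0.39) and 2 were lower (Adgrf5 and Ramp2, the latter by -0.51 ± 0.17). Of 11 transcription factors 2 were lower, both of the ETS family (Ets1 -0.47 ± 0.07, Fli1 -0.43 ± 0.08). Among 14 macrophage genes 0 were called over both stages, and their sum was 481 to 1228 CPM in SO and 326 to 448 in CD1 wild-type at E13.5. Megakaryocyte and platelet genes, 0 of 8 called, summed to 13.8 to 65.1 CPM in SO and 13.3 to 24.1 in wild-type at E13.5. Liver genes, 3 of 7 called lower, summed to 40.5 to 48.6 and 260.4 to 299.7 CPM at E12.5. Of 9 erythroid genes 3 were called lower in SO too (Hbb-bh1 -3.56 ± 1.02, adjusted p = 0.0157), with sums of 67.7 to 996 CPM in SO and 3262 to 3377 in wild-type at E12.5, and 83.8 to 589 and 49.7 to 4101 at E13.5. Of 10 renal stroma genes 6 were called lower and 3 higher in SO over both stages, among them Ntn1 (-1.72 ± 0.14), Foxd1 (-1.02 ± 0.11) and Vim (0.35 ± 0.06).

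The 2 mutants differed in their effect on the endothelial genes. The SD effect minus the SO effect, over both stages, was called lower for 8 of 10 members, in a comparison that called 9.87% of all genes lower. Vwf differed by -4.52 ± 0.71 (adjusted p = 6.66e-05), Aplnr by -4.89 ± 1.04 (0.00165) and Pecam1 by -4.12 ± 0.96 (0.00369). Robo4 (-4.26), Esam (-4.19), Flt1 (-3.90), Kdr (-3.84) and Cdh5 (-3.05) were the others. Tek (-0.29, 95% interval -1.20 to 0.62) and Emcn (0.84, -0.15 to 1.84) were not called. Each mutant was set against its own wild-type, so strain and colony go with the mutation in this difference and cannot be told apart from it. With voom weights Vwf alone was called (-4.41, adjusted p = 0.0204). Cdh5 lost its call in 10 of 24 fits that left out a library.

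In wild-type stroma Vwf in the CD1 background was the member called between the stages. In C57BL/6 wild-type limma called 0 of 10 between E12.5 and E13.5, and none had an unadjusted p under 0.05, beside 3.96% of all genes called either way. Tek (0.79, 95% interval -0.11 to 1.70) and Emcn (0.70, -0.29 to 1.70) were higher in every E13.5 library than in every E12.5 library, without being called. Over all genes, 13.1% were higher at E13.5 without overlap. For Emcn the lowest E13.5 library stood at 3.732 log2 CPM and the highest E12.5 library at 3.719. In CD1 wild-type 1 of 10 was called lower, in a comparison that called 3% of all genes lower. It was Vwf, at 3.96, 5.50 and 5.23 log2 CPM at E12.5 and 1.84, 1.10 and 1.34 at E13.5, a change of -3.47 ± 0.71 (adjusted p = 0.00601). The fall is seen in all 3 libraries, including replicate 1, which was the highest for Pecam1. Megakaryocyte and platelet genes summed to 110.3 to 113 CPM at E12.5 and 13.3 to 24.1 at E13.5 in the same libraries, and their part in the Vwf values was not tested. Without replicate 1, Pecam1, Kdr, Flt1 and Robo4 were called lower at E13.5 too (Pecam1 -2.97, adjusted p = 0.0216). The share of all genes called lower without that library is not given here. Between the backgrounds limma called 0 of 10 members, with none at an unadjusted p under 0.05, beside 4.46% of all genes. The interval for Pecam1, C57BL/6 minus CD1, was -1.81 to 1.001, and that for Emcn -0.70 to 0.71.

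Ordered by group mean, the 2 SD groups were the lowest of the 8 for 8 members, and SO at E13.5 was the highest for 8 (Pecam1, Kdr, Flt1, Esam, Robo4, Aplnr, Cdh5 and Tek). Pecam1 fell from 5.68 ± 0.36 log2 CPM (standard deviation, n = 3) in SO at E13.5 to 4.03 ± 0.27 in C57BL/6 wild-type at E13.5 and 3.78 ± 3.24 in CD1 wild-type at E13.5. It stood at 1.64 ± 1.10 in SD at E12.5 and -0.62 ± 0.32 in SD at E13.5. Vwf had its highest means at E12.5 in the CD1 background, 4.90 ± 0.82 in wild-type and 4.87 ± 0.73 in SO. Emcn was highest in SD at E13.5 (5.07 ± 0.41) and lowest in C57BL/6 wild-type at E12.5 (3.35 ± 0.49). Tek had the narrowest range of group means, from 3.44 ± 0.60 in SD at E12.5 to 4.39 ± 0.27 in SO at E13.5. Neighbouring groups in these orders overlapped in 62 of 70 cases. The 8 that did not include SD at E12.5 above SD at E13.5 for Pecam1, Esam and Robo4, and SD at E13.5 above SO at E13.5 for Emcn. The matching share of all genes was not computed. Between mutant and wild-type groups, or the 2 stages of wild-type, 7.35% to 17.1% of all genes were separate in 1 direction.

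Across the 24 libraries 7 of the members varied closely together and 3 more on their own. Pecam1, Cdh5, Esam, Kdr, Flt1, Aplnr and Robo4 correlated pairwise with Pearson's r of 0.93 to 0.99. These values describe libraries that share depth and cell makeup, and carry no test. Vwf correlated with the 7 at 0.77 to 0.83, Tek at 0.51 to 0.65 and Emcn at -0.18 to -0.01. Within the 12 wild-type libraries Emcn followed the 7 more closely (0.61 to 0.80) and Vwf less (0.40 to 0.58). Within the 6 SO libraries Emcn reached 0.92 to 0.98 and Vwf -0.15 to 0.11, and within the 6 SD libraries Emcn had -0.42 to 0.23 and Vwf 0.26 to 0.62. The 7 themselves kept together within wild-type (0.91 to 0.97) and SO (0.88 to 0.998), and were looser within SD, at 0.40 to 0.96 with a median of 0.74. Emcn and Tek correlated with each other at 0.91 in wild-type, 0.77 in SO and 0.82 in SD. The genes outside the list whose levels followed the mean of the members most closely over the 24 libraries were Tie1 (r = 0.99), Sox18 (0.98), Gja4 (0.98), Cd93 (0.98), Ptprb (0.96), Cd34 (0.96), Tmem255a (0.96), Icam2 (0.95), Gimap4 (0.95) and Myct1 (0.94). Tmem255a and Gimap4 were in none of the gene lists. For 3 members the closest genes were looked up after their values were seen: N4bp3 (0.85), Ramp2 (0.84) and Dock6 (0.84) for Emcn, Cav1 (0.82) for Tek, and Plek (0.91) and Mmrn1 (0.89) for Vwf. Plek encodes pleckstrin, a major protein of platelets, and Mmrn1 multimerin, which platelets and endothelial cells store.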

How the data were processed

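RNA was sequenced on an Illumina HiSeq instrument. The authors deposited log2 CPM values of 13803 genes, scaled by TMM with 0.5 added to each count, per the file itself. The submitters' processing notes name the aligner HISAT2, the counter HTSeq, limma and mm10, with no versions. Neither filtering nor strand of counting is stated in the sources used here. Reads were recovered as whole numbers (100% of values within 0.1 of a whole number), from 6.18 to 21.2 M (mega) per library. Depth limits genes with few reads, and intervals of read ratios cover counting error alone, because PCR copies could not be told from molecules.

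The fit used limma 3.58.1 (R 4.3.3): 8 group means over 24 libraries, a mean-variance trend, 16 residual and 6.43 prior degrees of freedom, 12 contrasts, two-sided tests, and Benjamini-Hochberg adjustment over 13803 genes with a threshold of 0.05. A gene needed a log2 CPM above 0 in 3 libraries, which removed 0 genes. All 10 members passed. The script was tested on simulated data. Alternatives were a pseudocount of 1 read, no filter, a stricter filter (6 libraries above 1), voom weights, median-ratio scaling, the 12 libraries of a line, a replicate block and leaving out each library. Read ratios use exact 95% intervals. RPKM used GENCODE M21 exon lengths, similar loci were searched with BLAST 2.17.0, and figures drawn with matplotlib 3.10.9 in Python 3.11.15.

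The members and gene lists were chosen with earlier results of these data known. Named genes are all members, up to 4 genes of each other list with the smallest p over both stages in either line, and the 10 other genes with the highest correlation to the members' mean. Values of Ctnnb1, Axin2, Foxd1, Pdgfra, Alb, Tie1 and of the ligands by group were added after that rule.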

Additional observations from a re-analysis of the deposited data

How the results depend on the processing

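In SD at E13.5 and over both stages, and in the difference of the mutants, the count of members called depended most on how the spread was modelled, and in SO at E13.5 and between stages in CD1 wild-type on 1 library. With voom weights, 0 members were called in SD at E12.5 (1 in the fit reported), 0 at E13.5 (7) and 0 over both stages (8), and 1 in the difference of the SD and SO effects (8), while the counts in SO at E13.5 and between stages in CD1 wild-type stayed at 1. Over all genes, voom weights called 73 lower in SD at E13.5, against 286, and 260 over both stages, against 512. In a fit of the 12 libraries of a line, 3 members were called in SD at E12.5 (Pecam1, Flt1 and Aplnr, but not Vwf), and 1, Vwf, each in SO over both stages (0) and in the change of the SO effect between stages (0). A pseudocount of 1 read gave 1 member, Vwf, in SO over both stages. With a library left out, the counts ran from 0 to 1 in SD at E12.5, 5 to 6 at E13.5, 7 to 8 over both stages, 0 to 8 in SO at E13.5, 0 to 1 in SO over both stages, 0 to 4 in its change between stages, 1 to 5 between stages in CD1 wild-type, and 7 to 8 in the difference of the mutants. The highest counts in SO and in CD1 wild-type came without CD1 wild-type E13.5 replicate 1. Shares of all genes called with a library left out are not given here. Filters and median-ratio scaling moved none of these counts by more than 1.5 times, and the median of all genes stayed within 0.02 of 0 under both scalings.

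With a replicate block, 2 members were called in SD at E12.5 (Vwf, and Flt1 with adjusted p = 0.0340), and Emcn over both stages had an adjusted p of 0.0466. Same-numbered mutant and wild-type libraries deviated with correlations from -0.14 to 0.28, and the labels do not say what a number marks, so the numbers were not taken as pairs. Further settings were added after the data were seen. Without the 2 libraries highest in Alb, 0 members were called in SD at E12.5. Leaving the highest and lowest CD1 wild-type E13.5 libraries out left 1 library in that group, assumed to vary like the other groups. That fit called 0 members between stages in CD1 wild-type, which says nothing of the stability of the Vwf call. Called changes of single members kept their call in 173 cases and lost it in 29 under these settings, and with a library left out kept it in 322 and lost it in 26. None changed its direction. Members with under 10 reads per library in SD at E13.5 (Pecam1, Flt1, Esam, Robo4, Aplnr and Vwf) are limited by depth.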
